A study of Homo sapiens with 6 samples.

Results

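Methylation was examined at 9 genes that mark or drive the trophoblast lineage, ELF5, GCM1, TEAD4, TFAP2C, CDX2, HAND1, ERVW-1, ERVFRD-1 and KRT7, of 19819 protein-coding genes with a canonical transcript on chromosomes 1 to 22 and X. They were named for their role in trophoblast, not for a measured value, though earlier results of these data were known. For each gene the promoter (1000 bp upstream to 500 bp downstream of the canonical transcription start site, TSS), the same window at 16 TSSs of other transcripts and the gene body were measured in 6 libraries of whole-genome bisulfite sequencing, in which a methylated cytosine is read as C and an unmethylated one as T. All 9 promoters had at least 10 calls in every library, as did 19300 promoters in all.

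The cells were H9, a widely used line of human embryonic stem cells, grown on mouse embryonic fibroblast feeders in low oxygen. Conventional cells (3 libraries) were kept in medium with bFGF and serum replacement, termed FGF/KSR. Reset cells (3 libraries) came from H9 carrying doxycycline-inducible NANOG and KLF2 transgenes. After a period in doxycycline with the MEK inhibitor PD0325901, the GSK3 inhibitor CHIR99021 and human LIF, they were moved without doxycycline to the same inhibitors and LIF with the PKC inhibitor Gö6983 (t2iL+Gö). The comparison therefore sets transgene-carrying cells in 1 medium against conventional cells in another, and the parts of medium and transgenes cannot be told apart. The libraries held 3.28 to 3.49 calls per CpG in Conventional and 2.51 to 2.86 in Reset, and 84.3 to 84.6% of all calls were methylated in Conventional against 29.5 to 30.3% in Reset. The promoter of the naive pluripotency gene DPPA3 stood at 79.9% ± 10.1 (SD, n = 3) in Conventional and 4.41% ± 4.02 in Reset. The promoter of POU5F1 fell from 14.8% ± 5.94 to 2.68% ± 2.39, and that of NANOG, at 6.52% ± 0.955 and 3.83% ± 0.872, did not pass the test. Since 67.4% of all promoters tested were lower in Reset, such falls alone do not check the cell labels.

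Trophoblast is the outer lineage of the blastocyst, which forms the placenta. In the mouse, methylation of the Elf5 promoter is known as a barrier that keeps embryonic cells from trophoblast fate, and the promoter is unmethylated in trophoblast stem cells. In human placenta GCM1 drives fusion of trophoblast cells into syncytium, and the syncytins, envelope proteins of captured retroviruses, carry that fusion out.

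The stretches below show the kinds of sequence in which the genes differed. They are from GRCh37, 5′ to 3′ on the strand of the gene, with each CpG in capitals. The 1st lies just upstream of the main TSSs of ELF5 (chr11:34535353-34535652, minus strand), inside the gene because a further TSS lies upstream of it. The others are HAND1 directly upstream of its TSS (chr5:153857788-153858087, minus strand) and the flank of HAND1 further upstream, outside that gene (chr5:153862488-153862787, minus strand).
ELF5 upstream: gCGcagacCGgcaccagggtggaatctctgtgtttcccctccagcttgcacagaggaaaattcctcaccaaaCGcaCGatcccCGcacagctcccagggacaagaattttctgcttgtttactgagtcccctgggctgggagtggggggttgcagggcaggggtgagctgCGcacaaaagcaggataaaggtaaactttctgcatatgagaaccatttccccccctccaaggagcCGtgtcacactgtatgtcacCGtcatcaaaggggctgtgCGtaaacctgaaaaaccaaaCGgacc
HAND1 upstream: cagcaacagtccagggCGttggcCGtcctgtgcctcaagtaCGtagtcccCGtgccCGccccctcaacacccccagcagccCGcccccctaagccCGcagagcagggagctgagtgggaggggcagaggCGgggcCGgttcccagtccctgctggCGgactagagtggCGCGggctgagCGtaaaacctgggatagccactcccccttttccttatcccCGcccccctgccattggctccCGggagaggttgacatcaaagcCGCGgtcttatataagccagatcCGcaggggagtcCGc
HAND1 flank: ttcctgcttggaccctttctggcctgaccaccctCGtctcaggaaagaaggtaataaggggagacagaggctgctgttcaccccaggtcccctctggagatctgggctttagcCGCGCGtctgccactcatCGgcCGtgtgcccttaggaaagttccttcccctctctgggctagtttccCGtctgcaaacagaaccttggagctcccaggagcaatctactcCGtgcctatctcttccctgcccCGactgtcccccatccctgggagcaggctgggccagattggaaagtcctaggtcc
The ELF5 stretch has 10 CpGs in 300 bases and was methylated at 90.0% ± 2.57 in Conventional and 40.7% ± 16.1 in Reset. The HAND1 upstream stretch has 19 CpGs and no methylated call in Conventional, where 0 of 135 calls allow a level of up to 2.22%, and stood at 1.39% ± 2.41 in Reset. The HAND1 flank, with 9 CpGs, went the other way from ELF5, from 1.96% ± 3.40 to 25.3% ± 5.65. These 3 stretches were chosen after the values of the surrounding bins had been seen, and no test was made on them.

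Of the 9 promoters, 5 were lower in Reset, 1 was higher and 3 did not pass the threshold of 0.05 on the adjusted p. Over all promoters tested 67.4% were lower and 3.98% higher, which puts the shares of the trophoblast genes near the background. The promoters fell into a methylated group (ELF5, GCM1, ERVW-1 and ERVFRD-1, all above 85% in Conventional), KRT7 in between, and a group under 5% (TEAD4, TFAP2C, CDX2 and HAND1).

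**Figure D1:**
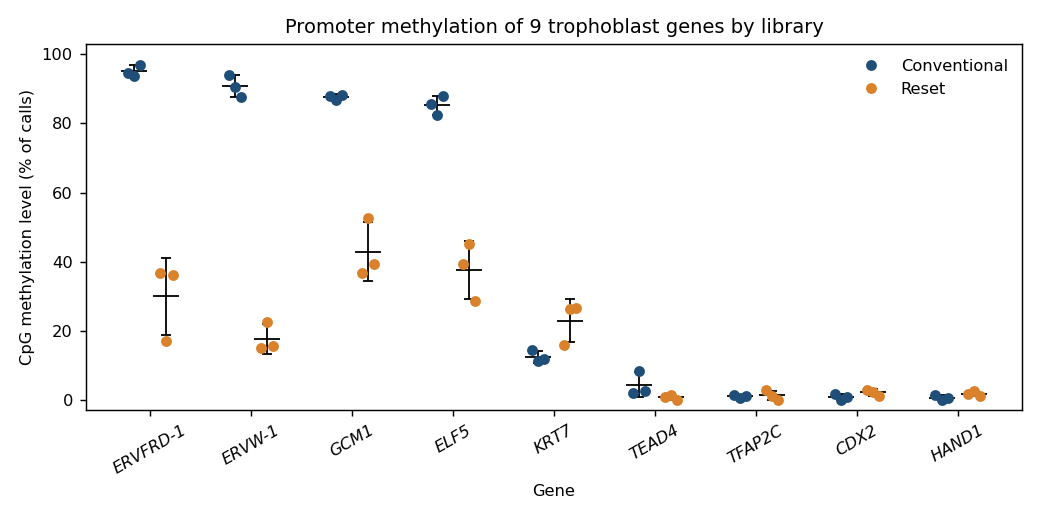
Promoter methylation (% of calls methylated) of the 9 genes in each library, with the mean and SD of 3 libraries as bars. ELF5, GCM1, ERVW-1 and ERVFRD-1 fall from 85.3 to 95.1% in Conventional to 17.7 to 42.9% in Reset, KRT7 rises, and the others lie near 0.

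ELF5, an ETS family transcription factor of trophoblast stem cells, had promoter levels (chr11:34534841-34536341, minus strand) of 85.5, 82.4 and 87.9% in the Conventional libraries and 39.2, 45.2 and 28.6% in the Reset libraries. Every Reset library lay far below every Conventional one, and the Reset libraries spread more widely. The mean went from 85.3% ± 2.73 to 37.6% ± 8.41, a fall of 47.6 percentage points (adjusted p = 1.015e-06). Of its 38 CpGs, 37 were lower in Reset when the calls of 3 libraries were pooled. Such counts, here and for the genes below, have no share over all CpGs beside them. Over all calls of the genome the level was 84.3 to 84.6% in Conventional and 29.5 to 30.3% in Reset. The loss was partial, with 44.2% of the Conventional level kept. In bulk libraries a partial level in every cell and a mixture of cells cannot be told apart. Among the 5128 promoters at 50% or more in Conventional the median kept 37.1% (quartiles 24.5 and 48.2%), and 65.7% of them kept less than ELF5.

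The promoters most like ELF5 over the 6 libraries, by Euclidean distance among the 17820 promoters whose lowest library had 30 or more calls, were those of C1orf226, the unnamed locus ENSG00000273088, RPEL1, CTNNA3 and PRAM1. Their distances were 5.39, 7.24, 7.45, 7.57 and 7.65 points. At C1orf226 the libraries stood at 87.2, 79.7 and 87.9% in Conventional and 40, 49.1 and 30.2% in Reset. None of these 5 was on the list of trophoblast genes, but that list is short beside 17820 promoters, so no conclusion follows.

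GCM1, the transcription factor of syncytial fusion, had promoter levels (chr6:53013139-53014639, minus strand) of 88.1, 86.7 and 88.2% in Conventional and 36.6, 52.6 and 39.3% in Reset. The groups did not overlap, and Reset replicate 2 was again the highest of its group. The mean fell from 87.6% ± 0.839 to 42.9% ± 8.57 (adjusted p = 4.218e-06), and 23 of 24 CpGs were lower in Reset. GCM1 kept 48.9% of its Conventional level, more than 76.5% of the methylated promoters did.

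ERVW-1, which encodes syncytin-1, had the lowest Reset level of the 4 methylated promoters. Its libraries (chr7:92106760-92108260, minus strand) stood at 94.0, 90.6 and 87.7% in Conventional and 14.9, 22.6 and 15.5% in Reset. All 3 Reset libraries were well below the lowest Conventional library. The fall was 73.1 points, from 90.7% ± 3.17 to 17.7% ± 4.28 (adjusted p = 9.036e-08), and 17.9% of methylated promoters kept a smaller share than its 19.5%. Within this window the part upstream of the TSS was the lower one in Reset. Pooled over libraries, 8.57% of 35 Reset calls were methylated from 1000 to 500 bp upstream, 10.1% of 69 in the 500 bp next to the TSS and 27.1% of 107 in the 500 bp downstream, against 95.9, 89.8 and 89.9% in Conventional. These differences within the gene were not tested.

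ERVFRD-1, which encodes syncytin-2, stood at 94.5, 93.7 and 97.1% in Conventional and 36.7, 17.1 and 36.1% in Reset (chr6:11111458-11112958, minus strand). Here Reset replicate 2 was the lowest, where it was the highest for ELF5 and GCM1. The mean fell from 95.1% ± 1.77 to 29.98% ± 11.2 (adjusted p = 1.06e-06), and all 21 CpGs were lower. Both syncytin genes derive from retroviral families with related copies elsewhere in the genome. The values may depend on how well reads could be told apart by the aligner, which was not tested.

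These 4 methylated promoters held fewer CpGs for their base composition than the other 5. Their ratios of observed to expected CpG were 0.382 for ELF5, 0.384 for GCM1, 0.304 for ERVW-1 and 0.244 for ERVFRD-1, against 0.610 to 0.865 in the other 5 genes. Methylated promoters in general had a median ratio of 0.240 (quartiles 0.175 and 0.342), so ELF5 and GCM1 lay above the upper quartile of their class and the syncytin genes within the quartiles. Promoters under 20% in Conventional had a median of 0.751.

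TEAD4, the nuclear partner of YAP in Hippo signalling, had a promoter (chr12:3067563-3069063, plus strand) at 2.07, 8.46 and 2.59% in Conventional and 0.840, 1.49 and 0% in Reset. Conventional replicate 2 stood apart, and the groups came close without overlapping. The mean went from 4.37% ± 3.55 to 0.778% ± 0.748 (adjusted p = 0.01803). Without Conventional replicate 2 the level fell by 1.55 points and the call was lost (adjusted p = 0.1284), and it was lost without Reset replicate 3 as well (adjusted p = 0.08019).

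TFAP2C, CDX2 and HAND1, transcription factors that act in early trophoblast and also in other lineages, had promoters almost free of methylation in both states. TFAP2C (chr20:55203362-55204862, plus strand) stood at 1.02% ± 0.487 in Conventional and 1.25% ± 1.39 in Reset (adjusted p = 0.9869). For CDX2 (chr13:28542952-28544452, minus strand) the levels were 0.765% ± 0.813 and 2.12% ± 0.960 (adjusted p = 0.3447). HAND1 (chr5:153857287-153858787, minus strand) had 0.634% ± 0.738 and 1.72% ± 0.698 (adjusted p = 0.2131), a difference of 1.09 points. Extended to 2000 bp upstream, the HAND1 window differed by 2.13 points and passed as higher (adjusted p = 0.01788). In all 3 genes the libraries of the groups overlapped. Where 1 library of these low promoters or of TEAD4 had no methylated call, its 123 to 344 calls allow a level of up to 2.44 to 0.872%.

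KRT7, the keratin used as a general marker of human trophoblast, had the only promoter of the 9 that was higher in Reset. Its libraries (chr12:52626027-52627527, plus strand) stood at 14.5, 11.2 and 11.9% in Conventional and 15.8, 26.4 and 26.5% in Reset. Reset replicate 1 lay just above the highest Conventional library, and the other two lay clearly above. The mean went from 12.5% ± 1.74 to 22.9% ± 6.16 (adjusted p = 0.008545). Without Reset replicate 2 the rise was 8.63 points and did not pass (adjusted p = 0.05903).

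The KRT7 window held opposite moves. Its first 500 bp, from 1000 to 500 bp upstream of the TSS, had 51.8% of 110 pooled calls methylated in Conventional and 39.3% of 112 in Reset. Its last 500 bp, downstream of the TSS, had 1.03% of 291 calls and 20.6% of 281. Extending the window to 2000 bp upstream gave a difference of -6.02 points (adjusted p = 0.1489), so the sign of the KRT7 promoter depends on its bounds. Of its 95 CpGs, 49 were higher and 12 lower in Reset, at a median of 5 calls per CpG in each group over 3 libraries.

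At the 16 other TSSs of these genes, 14 windows were lower in Reset, none was higher and 2 did not pass, against 92.1% lower and 1.85% higher over all 50595 such windows. At the other TSSs of ELF5 the levels went from 91.3% ± 5.14 to 37.7% ± 8.60 (TSS at 34533346) and from 87.0% ± 6.08 to 46.3% ± 1.84 (TSS at 34546740), so no ELF5 start was free of methylation in Reset. The further TSSs of ERVW-1 had higher levels than its promoter, at 48.5% ± 5.81 and 53.7% ± 4.63 in Reset. ERVFRD-1 likewise had 50.9% ± 6.66 at its second TSS. These 3 windows lie within the genes, and whether they differ from the promoters was not tested.

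The 7 other TSSs of KRT7 were all lower, in Conventional between 54.5 and 93.2% and in Reset between 25.3 and 34.4%. Some of these windows overlap each other or the promoter, so they are not separate measurements. The TEAD4 TSS at 3120210, deep in the gene, fell from 90.4% ± 3.38 to 44.5% ± 5.30, while the one at 3069083, beside the promoter, went from 3.57% ± 4.37 to 0.895% ± 0.602 with overlapping libraries (adjusted p = 0.01461). That call rested on Conventional replicate 2 at 8.54%, without which the level fell by 0.191 points (adjusted p = 0.7961), and it was lost without Reset replicate 3 too (adjusted p = 0.08505). The other TSSs of CDX2 (2.59% ± 1.05 and 2.81% ± 0.0711) and TFAP2C (0.352% ± 0.610 and 0.841% ± 0.745) did not pass. The TFAP2C one passed as higher only without Conventional replicate 3 (adjusted p = 0.03063).

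**Figure D2:**
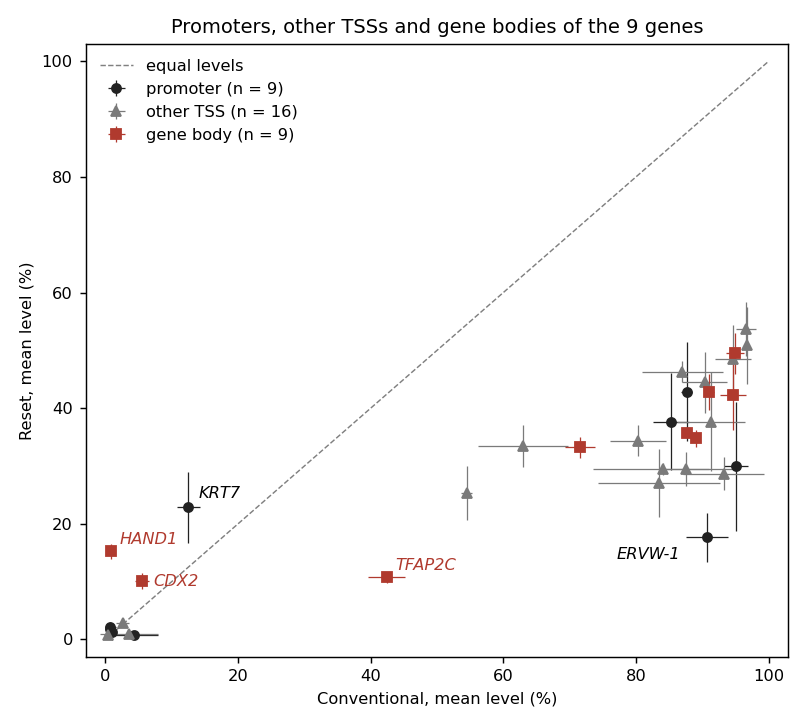
Mean methylation in Conventional (horizontal, %) and Reset (vertical, %) of the promoters, windows at other TSSs and bodies of the 9 genes, with the SD of 3 libraries as bars and equal levels as a dashed line. The gene bodies of HAND1 and CDX2 and the KRT7 promoter lie above the line among the features that passed the test.

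Among the gene bodies 7 were lower and 2 higher, against 97.9% lower and 1.11% higher over all 19199 bodies. ELF5 fell from 89.1% ± 0.483 to 34.8% ± 1.52, GCM1 from 91.0% ± 0.781 to 42.8% ± 3.05 and TEAD4 from 87.7% ± 0.473 to 35.7% ± 0.271. The bodies of ERVW-1 and ERVFRD-1 ended at 42.3% ± 6.08 and 49.5% ± 3.59, above their promoters. In KRT7 the body fell from 71.5% ± 2.25 to 33.2% ± 1.78, the opposite direction from its promoter. TFAP2C, whose body includes a long unmethylated start, fell from 42.4% ± 2.78 to 10.7% ± 0.942.

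The bodies of HAND1 and CDX2 were the ones that rose. HAND1 had body levels of 1.03, 0.935 and 0.399% in the Conventional libraries and 13.8, 16.3 and 15.7% in the Reset libraries. Every Reset library was more than 10 points above every Conventional one. The mean rose from 0.787% ± 0.339 to 15.3% ± 1.30, 19.4 times as high (adjusted p = 3.072e-10), in a gene whose promoter did not exceed 2.39% in any library. By the size of its rise it ranked 102 of 19199 bodies. Of the 435 bodies under 20% in Conventional, 200 (46.0%) were higher in Reset, so a rise was common in bodies that began low.

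CDX2 had body levels of 4.41, 5.82 and 6.43% in Conventional and 8.78, 11.5 and 10.2% in Reset. The groups did not overlap, and the difference was smaller than in HAND1. The mean rose from 5.55% ± 1.04 to 10.2% ± 1.37 (adjusted p = 2.646e-04).

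To place these changes, the 1-kb windows within 10 kb of each TSS were read from a fit over all 2060730 windows of the genome with enough calls. The choice of this test followed a look at the values, and of all windows 98.3% were lower and 0.421% higher. Around the 9 genes 174 windows were tested, of which 132 were lower, 23 higher and 19 did not pass. HAND1 had 13 of the higher windows, CDX2 8, KRT7 1 and TFAP2C 1. All 23 were under 20% in Conventional, a class of 42 windows here and of 32750 in the genome, of which 23.9% were higher. Neighbouring windows are not independent, so the 42 are not 42 separate observations.

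**Figure D3:**
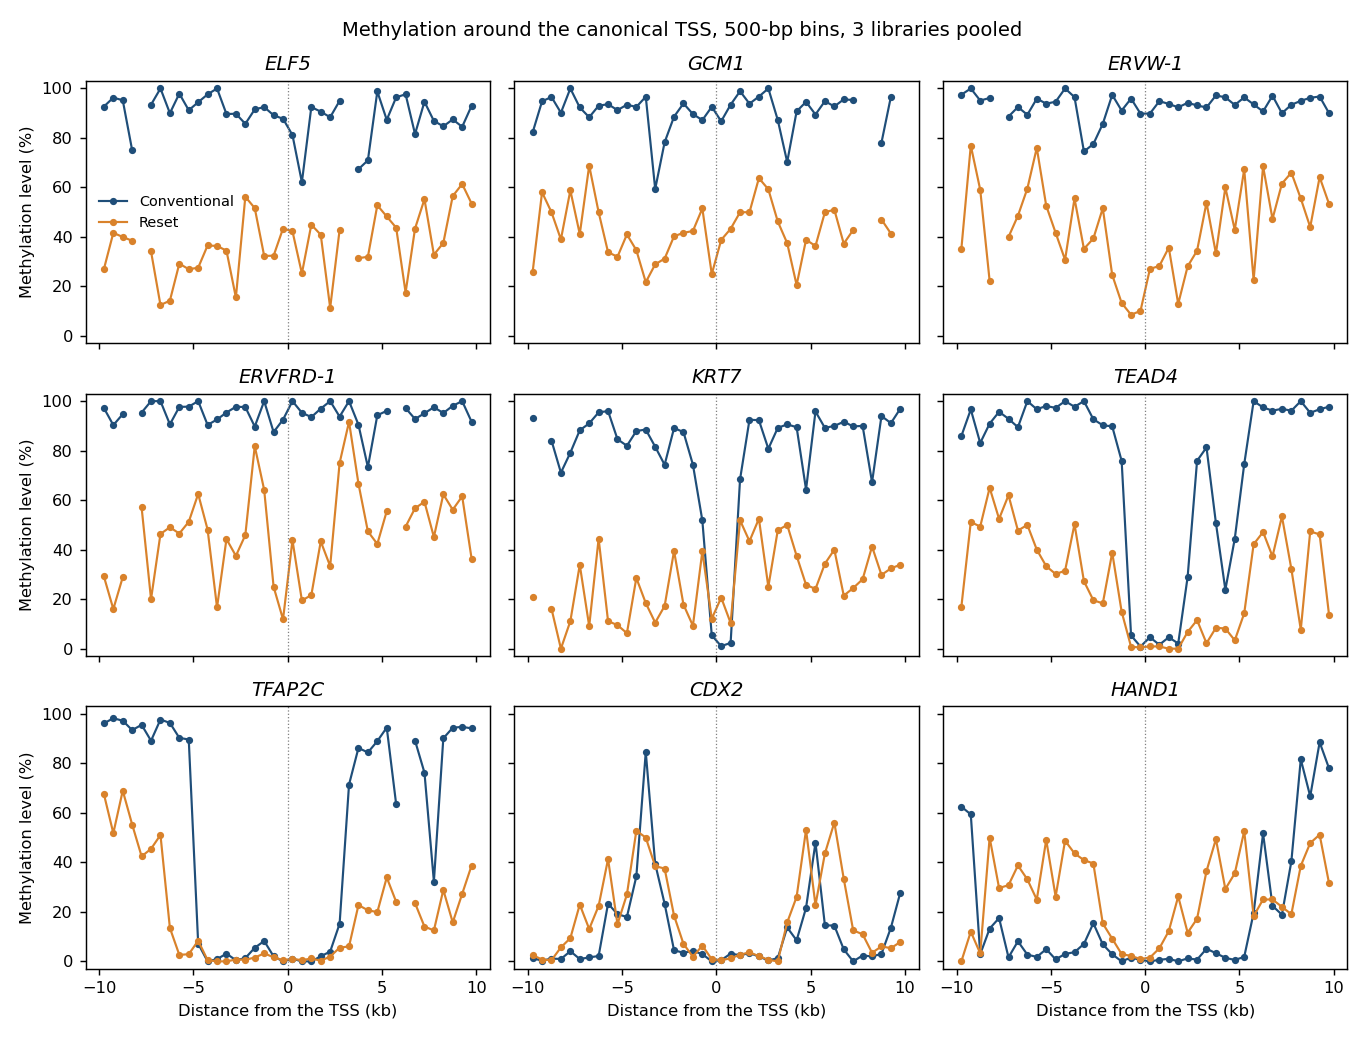
Methylation (% of calls, 3 libraries pooled) in 500-bp bins against distance from the canonical TSS in kb, upstream to the left, for the 9 genes; gaps are bins with no call. ELF5, GCM1, ERVW-1 and ERVFRD-1 have no unmethylated core in Conventional, TEAD4 and TFAP2C have a core that is wider in Reset, and CDX2 and HAND1 gain methylation beside a core that stays low.

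HAND1 lay in a low stretch of 15 windows in Conventional, centred from 8713 bp upstream to 5287 bp downstream, with 0 to 15.6%. Of these 15 windows 13 were higher in Reset. At the window 4713 bp upstream the libraries stood at 2.59, 0 and 3.73% in Conventional and 38.2, 38.1 and 29.1% in Reset. The mean rose from 2.11% ± 1.91 to 35.1% ± 5.22 (adjusted p = 4.124e-34). Downstream, at 4287 bp, it rose from 1.74% ± 1.59 to 34.8% ± 9.25 (adjusted p = 1.485e-26), and the highest Reset mean was 44.8% ± 3.88 at 3713 bp upstream. In between, the windows centred 713 and 1713 bp upstream did not pass (1.62% ± 1.03 and 7.11% ± 6.16 in Reset). The window at the TSS itself, centred 287 bp downstream, passed at a very low level, from 0 of 660 calls, which allow up to 0.455%, to 2.41% ± 2.15. Beyond the low stretch the direction turned: at 9287 bp downstream the level fell from 82.0% ± 5.87 to 40.4% ± 1.88.

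CDX2 also had a low core with rising windows on both sides. The 5 windows from 1048 bp upstream to 2952 bp downstream stayed under 5% in both states and none passed. At 5952 bp downstream the libraries went from 9.76, 17.6 and 16.2% to 43.2, 60.0 and 59.5%, a mean of 14.5% ± 4.2 against 54.2% ± 9.58 (adjusted p = 9.487e-09). At 7048 bp upstream they went from 1.64, 2.5 and 0.826% to 15.7, 14.4 and 15.4% (adjusted p = 2.177e-09). In both windows all Reset libraries were above all Conventional ones, as they were in 6 of the 8 higher windows.

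**Figure D4:**
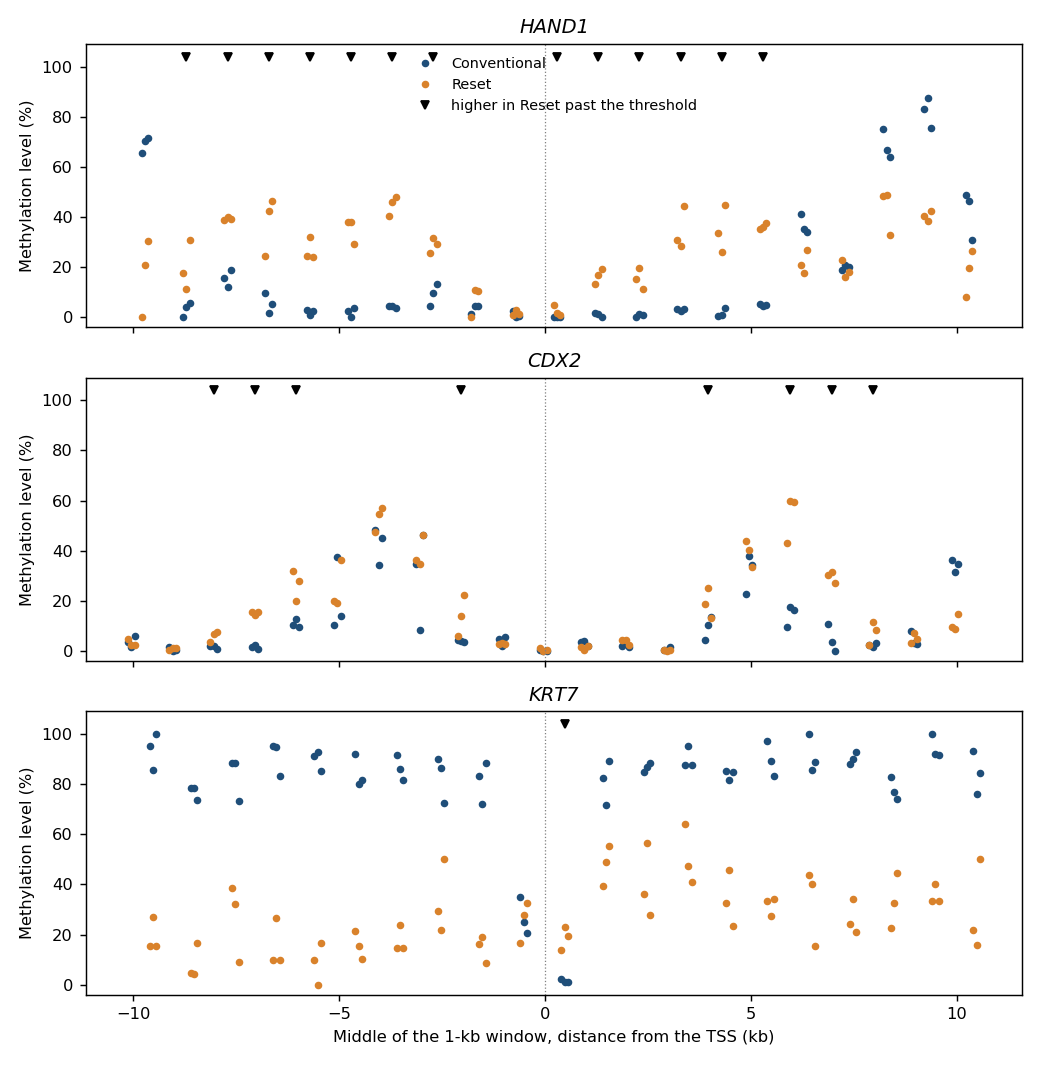
Methylation (%) of each library in 1-kb windows against distance from the TSS in kb for HAND1, CDX2 and KRT7, with triangles over windows higher in Reset past the threshold; KRT7 includes 2 windows with too few calls to test. HAND1 rises on both sides of a low core, and in KRT7 a single window beside the TSS rises from 1.54 to 18.7% while the flanks fall.

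In KRT7 the window 473 bp downstream of the TSS stood at 2.33, 1.11 and 1.18% in Conventional and 13.7, 23.2 and 19.3% in Reset, with every Reset library above every Conventional one (1.54% ± 0.683 against 18.7% ± 4.75, adjusted p = 1.87e-13). The neighbour on the upstream side did not pass (26.9% ± 7.20 and 25.6% ± 8.30). The other 17 tested windows of KRT7 fell, for example from 81.2% ± 8.42 to 14.6% ± 5.41 at 1527 bp upstream.

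TFAP2C and TEAD4 showed a widening of the low core in place of a rise. In TFAP2C the window 5862 bp upstream stood at 95.2, 89.3 and 90.7% in Conventional and 1.30, 4.44 and 12.5% in Reset. All Reset libraries were far below the lowest Conventional one, with Reset replicate 3 the least low. The mean fell by 85.6 points to 6.08% ± 5.78 (adjusted p = 2.222e-58), while the next window outward, at 6862 bp, stood at 40.2% ± 2.20 in Reset. TEAD4 fell from 78.5% ± 8.44 to 5.51% ± 2.02 at 2937 bp downstream, in an intron (adjusted p = 2.334e-34), against 41.2% ± 4.93 left at 5937 bp. The single higher window of TFAP2C, at 1138 bp downstream, had a mean of 0.767% in Reset with overlapping libraries and was lost without Conventional replicate 1, 2 or 3 or without Reset replicate 1.

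ELF5, GCM1, ERVW-1 and ERVFRD-1 had no tested window under 74% in Conventional and all 71 were lower in Reset, as were 98.3% of all windows in the genome. Among these tested windows the lowest Reset levels were 25.5% for ELF5, 25.8% for GCM1, 13.4% for ERVW-1 and 15.7% for ERVFRD-1. The depth of reads over the wider neighbourhood was similar in the groups: within 500 kb of each TSS the calls per CpG relative to the autosomes in Reset were 0.979 to 1.12 times those in Conventional. Single features differed more. Summed over 3 libraries, the calls per CpG numbered 4.25 (Conventional) and 6.19 (Reset) at the TEAD4 promoter, and 3.74 and 7.03 at its TSS at 3069083. They numbered 10.6 and 6.97 at the ELF5 promoter, and 10.4 and 7.34 in the HAND1 body. The window at the HAND1 TSS had 660 calls in Conventional and 353 in Reset. The part of these depths in the levels was not tested.

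The promoters of 64 other genes of trophoblast and placenta were read from the same fit. Of them 39 were lower (60.9%), 5 were higher (7.81%) and 20 did not pass, beside 67.4 and 3.98% of all promoters. Their median went from 18.2% in Conventional to 7.30% in Reset, and the median change was -9.87 points, beside -9.59 over all promoters. Of the 19 at 50% or more in Conventional all 19 were lower, to between 0.662 and 50.4%, and none kept 80% of its level. This is what methylated promoters did in general, since 99.3% of the 5128 at 50% or more were lower and 0.371% kept 80% or more.

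**Figure D5:**
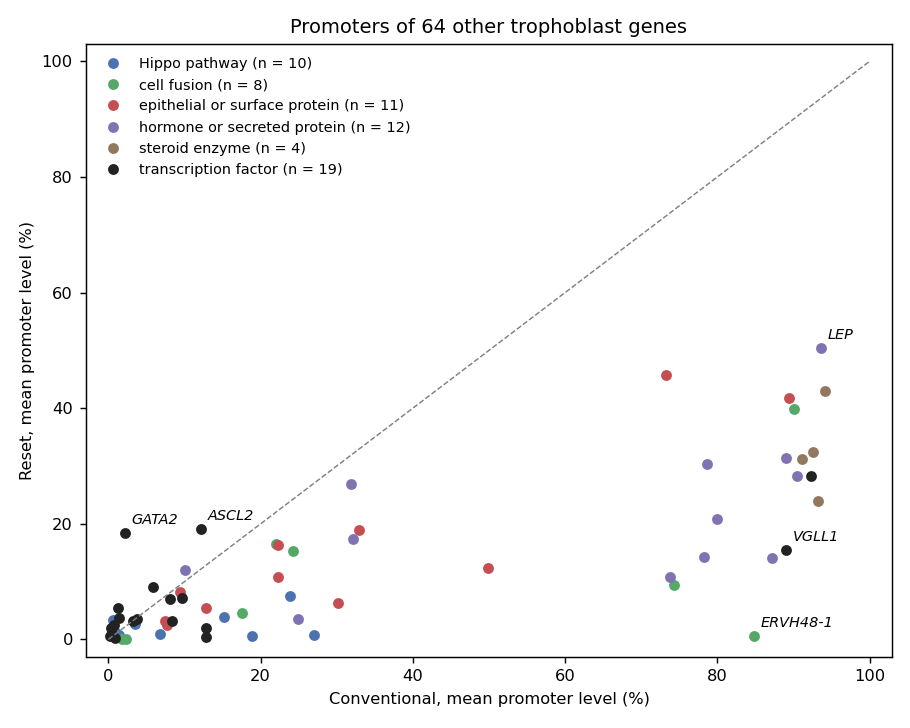
Mean promoter methylation of 64 other trophoblast genes in Conventional (horizontal, %) and Reset (vertical, %), coloured by role, with equal levels as a dashed line. All 19 promoters at 50% or more in Conventional fall, ERVH48-1 furthest, and GATA2 and ASCL2 are the clearest points above the line.

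All 4 steroid enzymes were lower, with a median of 92.9% in Conventional and 31.9% in Reset. Of 12 hormones and secreted proteins, with a median of 78.4% in Conventional, 10 were lower and none higher. Genes of cell fusion were lower in 6 of 8 and epithelial and surface proteins in 9 of 11, from medians of 23.1 and 22.3%. Hippo pathway genes were lower in 5 of 10, with TEAD3 higher, from a median of 5.19%. Of the 19 transcription factors 5 were lower and 4 higher, and their median was 3.77% in Conventional. The roles thus began at very different levels, and against 67.4% lower and 3.98% higher over all promoters, or 47.1% lower and 6.55% higher over the 11061 promoters under 20% in Conventional, no role was tested for a difference from the rest.

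The largest fall among these genes was at ERVH48-1, which encodes suppressyn, an inhibitor of syncytin-mediated fusion. Its libraries stood at 86.1, 84.4 and 83.7% in Conventional and 0.704, 1.28 and 0% in Reset. The Reset level was that of a promoter with almost no methylation, at 0.662% ± 0.642 (adjusted p = 5.582e-10). VGLL1, a cofactor of TEAD proteins, fell by 73.4 points to 15.5% ± 9.14. Its promoter lies on the X chromosome and has only 8 CpGs, with 19 calls in its lowest library. INSL4, a placental insulin-like peptide, fell by 73.0 points to 14.1% ± 4.03. CYP19A1, the aromatase that makes oestrogen, fell by 69.2 points to 24.0% ± 13.6. The retroviral envelope gene ERVV-2 fell by 64.8 points. GDF15, a stress cytokine gene, fell by 64.05 points. These 6 were chosen as the largest falls among promoters whose groups did not overlap.

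The 5 promoters that were higher all began low, under 20% in Conventional, a class of which 6.55% were higher over all promoters. The 64 genes, with a median of 18.2% in Conventional, were not all in that class, so 5 of 64 is not the matching share. GATA2, a GATA factor of trophoblast and blood, stood at 3.67, 1.49 and 1.25% in Conventional and 19.0, 18.6 and 17.8% in Reset. The Reset libraries were tightly grouped and far above the others (2.14% ± 1.33 against 18.5% ± 0.622, adjusted p = 6.516e-06). EOMES rose from 1.23% ± 0.709 to 5.40% ± 1.44, TEAD3 from 0.567% ± 0.578 to 3.33% ± 1.23 and GATA3 from 0.384% ± 0.334 to 1.92% ± 0.360 (adjusted p = 0.008813, 0.01039 and 0.03167). ASCL2, a transcription factor of trophoblast progenitors, went from 12.2% ± 5.13 to 19.0% ± 4.96 with overlapping libraries and passed narrowly (adjusted p = 0.0494). With libraries left out in turn, GATA2 and EOMES passed each time. ASCL2 was lost without Conventional replicate 2 or 3 or Reset replicate 1 or 2 (differences of 7.72, 3.997, 4.73 and 6.30 points, adjusted p = 0.06803, 0.1782, 0.1454 and 0.1878). GATA3 was lost without Conventional replicate 2 or Reset replicate 1 or 2 (1.34, 1.38 and 1.48 points, adjusted p = 0.1034, 0.0732 and 0.07537). TEAD3 was lost without Conventional replicate 3 (2.48 points, adjusted p = 0.05609).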

How the data were processed

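Whole-genome bisulfite libraries of H9 cells, 3 Conventional and 3 Reset, were compared. Trim Galore, Bismark (version 0.9.0 per the labels, another in the methods), Bowtie2 and GRCh37 are what the authors name for trimming and alignment. Each deposited file gives, per CpG cytosine, the count of methylated calls, that of unmethylated calls and the percent methylated, without normalization. Removal of duplicate reads is not given in the sources used here, nor is how reads of the mouse feeder cells were kept apart, and the part of either in the levels was not tested. The study calls the libraries biological replicates, but the labels do not say that they came from separate cultures, so p-values concern these libraries only. They rest on counted calls and on a dispersion drawn in part from all features of a kind. They do not measure the library spread of a single feature alone. In the ERVFRD-1 window 542 bp upstream, the Reset libraries stood at 41.7, 5.41 and 0%. The adjusted p there, from the fit over all windows, was still 4.459e-18.

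Positions, counted from 0 in 99.8% of cases, were matched to GRCh37 and both strands of a CpG summed. Genes came from GENCODE 44 lifted to GRCh37, and sequences from GRCh37. Where no library had fewer than 10 calls, a quasi-binomial logistic model was fitted to the calls (likelihood-ratio F test, R 4.3.3), with dispersion squeezed by limma 3.58.1 and kept at 1 or more, and Benjamini-Hochberg adjustment over all features of a kind at a threshold of 0.05. Calls on 1 read are not independent. Intervals and limits for a count of 0 (3 calls) cover counting error only. An exact permutation test of 3 against 3 libraries cannot go below 0.1 and was not used. Alternatives were edgeR 4.0.16, Fisher's exact test on pooled calls, limma on CpG means, other bounds, call minimums of 5 and 20, CpGs over 30 calls left out, each library left out and a replicate block. On simulated calls the test recovered 70% of changes of 20 points at promoters, 39% at other TSSs and 96% at bodies. Of changes of 40 points it recovered 97, 100 and 98%. In the simulation a small part of the features was changed, each from its level pooled over both groups. In the data most features were called, so these shares do not give the recovery in the real fits. A feature that did not pass may still have changed.

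The members, the list of 64 genes and the tests were chosen with earlier results of these data known. The genes named from the list were those higher past the threshold, the 6 with the largest fall without overlap, and any at 50% or more that kept 80%. Expression was not analysed here.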

Additional observations from a re-analysis of the deposited data

How the results depend on the processing

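The promoter falls of ELF5, GCM1, ERVW-1 and ERVFRD-1 and all 9 gene bodies kept their direction and call under every alternative that could be run. For ELF5 the fall ranged from 40.1 to 51.4 points. ERVW-1 had too few calls to test from 200 bp upstream to 200 bp downstream. With libraries left out in turn, the promoters of the 9 genes had 4 to 5 lower and 0 to 1 higher, the other TSSs 0 to 1 higher and the 64 other genes 3 to 6 higher, where 63.4 to 65.5% of all promoters were lower, 3.36 to 3.72% of them higher and 1.69 to 1.76% of all other TSSs higher. Narrower promoters hold fewer calls. From 500 bp upstream to 500 bp downstream the 64 genes had 23 lower and 2 higher, beside 39.6% (7498) and 4.4% of 18918 promoters. From 200 bp upstream to 200 bp downstream there were 8 testable promoters among the 9 genes, with 3 lower and 0 higher, and 57 of the 64, with 11 lower and 1 higher, beside 13.3% (2183) and 1.41% (230) of 16363 promoters. There KRT7 rose by 13.8 points without passing (adjusted p = 0.1079). Extended to 2000 bp upstream, 2.43% (474) of all promoters were higher and the differences of KRT7, CDX2 and TFAP2C were -6.02, -0.283 and -1.61 points. CDX2 stood at -0.450 points in the narrowest window. With libraries left out, TFAP2C ranged from -0.507 to 0.867 points and the other CDX2 TSS from -0.348 to 0.679. These signs are of differences that did not pass. TEAD4 did not pass in the narrower windows or with limma on CpG means, where the 64 genes had 3 higher beside 3.3% of all promoters (ASCL2 and TEAD3 lost). With a minimum of 20 calls, 9 KRT7 windows were lower instead of 17, because the other 8 had 10 to 18 calls in their lowest library and were not tested. Without Conventional replicate 3, 2 CDX2 windows were lower instead of 1, and the cause was not tested. Deviations from the group means over promoters gave no sign that replicate numbers pair the samples. The correlations of same-numbered libraries were 0.0095, 0.0076 and 0.0015, and those of other pairs -0.0202 to 0.0119. Counting error lowers such correlations, so they cannot show that the samples were unpaired. With a replicate block 5 of the 9 promoters were lower and 1 higher, other TSSs 14 and 0, bodies 7 and 2, and the 64 genes 38 and 4 (GATA3 lost, adjusted p = 0.05018). In those blocked fits 64.1% of all promoters were lower and 3.31% higher, of all other TSSs 91.8 and 1.74%, and of all bodies 97.9 and 1.11%. Depth limits single CpGs, with a median of 3 to 10 calls per group.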
